A study of Mus musculus with 15 samples.

Results

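The genes for the proteins of the cytosolic ribosome were followed across 15 libraries of mouse brain tumours. Members were the symbols of the expression table that start with Rpl or Rps and a number, with the stalk genes Rplp0, Rplp1 and Rplp2 and with Rpsa, leaving out pseudogene symbols, the Rps6k kinases and the like-named paralogs. The rule kept 79 of 38172 symbols and used no measured value. Of these, 73 were ribosomal protein genes proper, 43 of the large subunit and 30 of the small subunit. The other 6 were Rps19bp1, which encodes a binding partner of Rps19, and 5 copies by their symbols, namely Rpl37rt, Rps27rt, Rps23rg1, Rps3a2 and Rps3a3. The X-linked genes Rps4x, Rpl10, Rpl36a and Rpl39 were not analysed here.

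The tumours were low-grade gliomas started in nestin-TVA mice (spelled nesin-TVA in the labels), whose nestin-expressing cells carry a receptor for avian retrovirus, by injecting the brain with chicken DF-1 cells that expressed R132H-mutant IDH mixed in equal parts with DF-1 cells that expressed PDGFB. Tumours were seen by MRI at day 28, mice were treated for 9 days by intraperitoneal injection, and tumour pieces were collected at day 37 and sequenced in bulk. The anti-PD1 group (4 libraries) received 1 mg of an antibody against the PD-1 checkpoint receptor per injection, 2 times a week. The Combination group (4 libraries) received anti-PD1 and vorinostat, the Vorinostat group (4 libraries) received 1 mg of that histone deacetylase inhibitor 1 time a day, and the Control group (3 libraries) received the vehicle of vorinostat as placebo daily. All 4 groups shared the IDH-mutant genotype, and the labels give no age of the mice. The series asked how well anti-PD1 and vorinostat work together. Labels did not say that replicates were separate mice, so p-values measure the spread between these samples.

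A ribosome joins messenger RNA to transfer RNA on its small subunit and forms the peptide bonds on its large subunit. Its proteins are made in near equal numbers, and free copies are broken down. In mammals their messenger RNAs begin with a run of pyrimidines at the cap, the 5′ terminal oligopyrimidine (TOP) tract, through which mTOR signalling and the protein Larp1 set how much of them is translated. Growing cells put a large part of their transcription into ribosomes, and each member can also be deposited many times over in the genome as a processed pseudogene, because its messenger RNA is abundant and short.

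Start regions were read from RefSeq (GRCm38.p6, the assembly known as mm10), which held 63 starts for 53 of the 73 ribosomal protein genes. A run of at least 8 C or T on the gene's own strand, within the 50 bases before and 15 bases after the start, was present for 33 of the 53 genes, and in 57.1% of their starts against 26.6% of all 32851 starts. CCGGAAG, the core letters of ETS and GABP sites, was found on either strand within 250 bases before and 50 bases after 38.1% of the members' starts and 8.86% of all starts. GGGCGG was present in 60.3% of member starts and 35.7% of all starts, AAGATGGC in 11.1% and 2.75%, TATAAA in 6.35% and 13.6%, and TGACGTCA in 7.94% and 1.79%. TGACGTCA was found for 5 genes, Rpl13, Rpl18, Rpl26, Rpl27a and Rps9. These are matches of letters, counted separately for each motif, and overlaps between motifs were not removed.

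The stretches below run from 50 bases before to 15 bases after the annotated start, 5′ to 3′ on the gene's strand, with runs of at least 8 C or T in capitals. They are shown for the members that varied most (Rpl13, Rplp0, Rps18) and for those that varied least (Rpl9, Rps21, Rpl38). Others were added whose starts have a long run or none (Rps27, Rpl35, Rps28, Rplp2). Where a gene had several annotated starts, the start with the longest run was taken. Rps21 has another start, not shown, whose longest run is 7 bases.
Rpl13, chr8:123102300-123102364 (+): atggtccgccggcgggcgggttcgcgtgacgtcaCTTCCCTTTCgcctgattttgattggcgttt
Rplp0, chr5:115559417-115559481 (+): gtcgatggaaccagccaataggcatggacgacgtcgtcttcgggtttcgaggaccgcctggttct
Rps18, chr17:33955651-33955715 (-): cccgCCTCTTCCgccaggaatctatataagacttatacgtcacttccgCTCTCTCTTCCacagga
Rpl9, chr5:65391417-65391481 (-): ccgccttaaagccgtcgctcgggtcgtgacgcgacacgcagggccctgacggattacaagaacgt
Rps21, chr2:180257399-180257463 (+): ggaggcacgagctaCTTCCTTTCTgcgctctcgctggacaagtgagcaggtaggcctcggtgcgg
Rpl38, chr11:114668530-114668594 (+): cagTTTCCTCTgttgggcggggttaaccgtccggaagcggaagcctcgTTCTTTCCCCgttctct
Rps27, chr3:90213634-90213698 (-): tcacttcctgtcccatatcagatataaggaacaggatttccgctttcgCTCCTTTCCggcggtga
Rpl35, chr2:39005117-39005181 (-): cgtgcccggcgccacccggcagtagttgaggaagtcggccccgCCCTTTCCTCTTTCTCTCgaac
Rps28, chr17:33824548-33824612 (-): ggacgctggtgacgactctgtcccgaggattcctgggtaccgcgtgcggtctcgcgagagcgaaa
Rplp2, chr7:141447601-141447665 (+): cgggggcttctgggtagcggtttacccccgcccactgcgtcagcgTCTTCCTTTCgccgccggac
Rpl35 held the longest run of these 10 starts, at 18 bases, and Rps18 the next, at 11 bases. Rplp0, Rpl9 and Rps28 had no run of 8 in this window. Rplp0 and Rpl9 lie at opposite ends of the range of spread given below.

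Values in the table were TPM, a level scaled within each library for gene length and sequencing depth. The values of all 79 members came out as whole reads, and for 78 of them the length behind the TPM was the whole gene, introns included. Members with long introns therefore have low TPM, as for Rpl11 (a gene span of 25164 bases) and Rps14 (31449 bases). Levels are compared between genes below as reads per kilobase of the annotated principal transcript per M (1e6) reads, and TPM is used only to compare libraries for the same gene. The libraries held 83.2 to 165.1 M such reads, and each of the 78 members at 1 TPM or more in at least 3 libraries had at least 341 reads in every library. Rps23rg1, with a mean of 0.159 TPM, did not reach that filter and entered no test.

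The 79 members took up 42748, 37432, 65958 and 48405 TPM in the anti-PD1 libraries. They took up 59251, 54499, 70302 and 70140 TPM in the Combination libraries, 58530, 66150, 84118 and 49937 TPM in the Vorinostat libraries, and 58175, 74120 and 72856 TPM in the Control libraries. Anti-PD1 libraries 1, 2 and 4 were the lowest of the 15, and anti-PD1 library 3 lay within the range of the other groups. The members' share of all TPM was 4.88% ± 1.25 with anti-PD1, 6.38% ± 0.797 with the combination, 6.49% ± 1.46 with vorinostat (SD, n = 4 each) and 6.86% ± 0.885 in controls (SD, n = 3). As a share of reads it was 1.86% ± 0.394, 2.40% ± 0.226 and 2.44% ± 0.465 (SD, n = 4 each) for the same treated groups and 2.56% ± 0.321 (SD, n = 3) for controls. In bulk tissue, fewer cells of a type and less RNA per cell cannot be told apart.

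The members moved together. The median log2(TPM + 1) of the 78 tested members was 8.80, 8.70, 9.46 and 8.98 in the anti-PD1 libraries and 9.31, 9.20, 9.57 and 9.57 in the Combination libraries. It was 9.35, 9.52, 9.84 and 9.07 in the Vorinostat libraries and 9.26, 9.65 and 9.63 in the Control libraries. In 70 members the lowest of the 15 libraries was anti-PD1 library 2, and in 68 the highest was Vorinostat library 3. Large-subunit genes averaged 0.08 to 0.12 log2 units under small-subunit genes in every library, so both subunits shifted alike. The offset itself also reflects gene spans, introns included, and was not read as a difference in level.

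**Figure D1:**
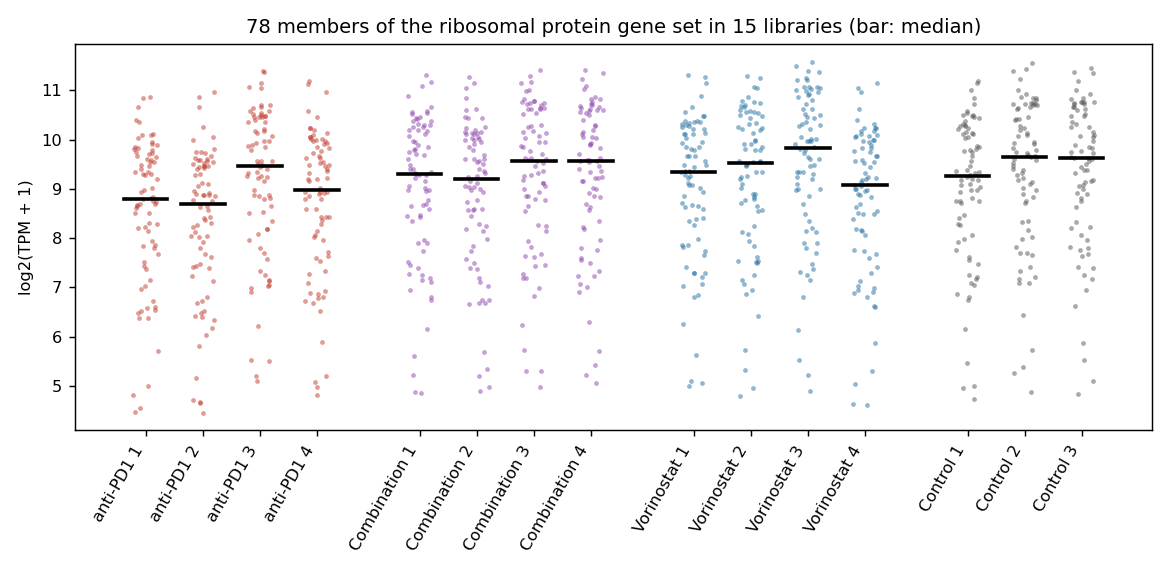
Levels of 78 members as log2(TPM + 1) (vertical axis) in each of the 15 libraries (horizontal axis, by group), with a bar at each library's median. The medians run between 8.70 in anti-PD1 library 2 and 9.84 in Vorinostat library 3, and anti-PD1 library 3, at 9.46, sits apart from the other anti-PD1 libraries.

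Across the 15 libraries the median SD of a member's log2(TPM + 1) was 0.33, and it was 0.10 once each library's member median was subtracted. The SD was under 0.2 for 72 of the 78 members after that subtraction and for 6 before it, and the first principal component held 92.7% of the members' variance. Rps19, of the small subunit head and mutated in Diamond-Blackfan anaemia in humans, and Rpl13a, which in human monocytes also acts off the ribosome, followed the median most closely, with an SD of 0.03 around it. The members that departed most from the median were Rpl13 (SD 0.49), Rps19bp1 (0.34), Rplp0 (0.31), Rps18 (0.25), Rps3a2 (0.23) and Rps21 (0.22).

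Without the subtraction, Rplp0 had the largest SD, 0.61, followed by Rpl13 at 0.59 and Rps18, a protein of the small subunit head, at 0.55. Rplp0 is the base of the stalk that recruits the elongation factors, on which Rplp1 and Rplp2 sit as dimers. Its level was 746, 468, 1342 and 807 TPM in the anti-PD1 libraries, 1169.5, 778, 1698 and 1589 TPM in the Combination libraries, 1052, 1562, 2359 and 911 TPM in the Vorinostat libraries, and 1132, 1699 and 1728 TPM in the Control libraries. The highest library was 5.04 times the lowest, and the groups overlapped.

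At the other end, Rpl9 and Rps21 had an SD of 0.16 and Rpl38 of 0.18. Rps21, on the solvent side of the small subunit, had 708, 705, 879 and 791 TPM in the anti-PD1 libraries, 922, 955, 839 and 908 TPM in the Combination libraries, 992, 896, 958 and 817 TPM in the Vorinostat libraries, and 876, 986 and 997 TPM in the Control libraries. Its anti-PD1 libraries were the lowest apart from library 3, as for the set, but the steps were small. Rpl9, near the factor-binding site, averaged 809 ± 132 TPM with anti-PD1, 919 ± 45.3 TPM with the combination, 923 ± 86.2 TPM with vorinostat (SD, n = 4 each) and 936 ± 44.9 TPM in controls (SD, n = 3). Rpl38, known in mice for its part in the translation of Hox messenger RNAs, averaged 158 ± 24, 183 ± 9.80 and 189.9 ± 16.9 TPM in those treated groups (SD, n = 4 each) and 196 ± 16.9 TPM in controls (SD, n = 3).

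Rank correlations of the spread with gene properties were weak. Across the 73 ribosomal protein genes, which share the same 15 libraries, Spearman's rho of the SD was 0.24 with coding length, 0.20 with transcript length, 0.03 with mean TPM, -0.07 with the level per transcript length and -0.06 with the number of near-identical pseudogenes. The 24 genes with the shortest coding sequences (75 to 405 bases) had a median SD of 0.30, and the 24 with the longest (576 to 1257 bases) one of 0.33.

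**Figure D2:**
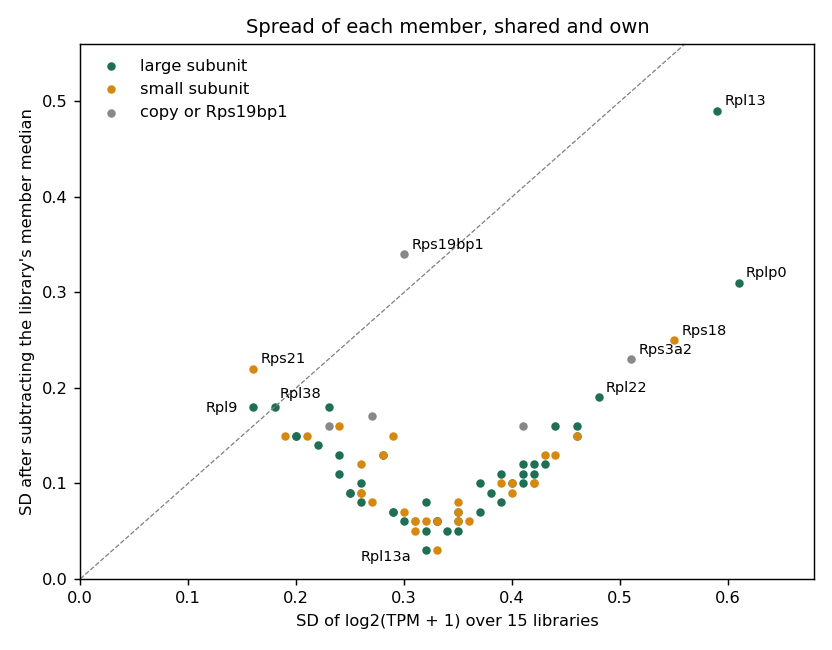
SD of log2(TPM + 1) over the 15 libraries (horizontal axis) against the SD left after each library's member median is subtracted (vertical axis), for 78 members coloured by subunit, with a dashed line of equality. Most members drop to an SD near 0.10, while Rpl13 keeps 0.49 of its 0.59. Rps19bp1, Rps21 and Rpl9 lie above the line, with a larger SD after the subtraction than before it.

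Levels per transcript length ran over a wide range. The highest were Rps15, near the decoding site, at 939.7 ± 97.7 reads per kilobase per M reads, Rpl23a, beside the exit tunnel, at 808 ± 169, and Rplp1 at 755 ± 84.2 (SD, n = 15 libraries). The spread of Rps15 and of Rpl23a overlapped, as did that of Rpl23a and Rplp1. The lowest were Rpl29 at 12.3 ± 1.97, Rpl34 at 40.0 ± 8.74 and Rps20 at 46.5 ± 10.6 (SD, n = 15 libraries). The annotated transcript of Rps20 is 3706 bases long, and per coding length Rps20 ranked 54 of 73. Rpl29 and Rpl34 were the lowest by either length. The highest per coding length was Rpl41, the smallest ribosomal protein, at 4135 reads per kilobase of coding sequence per M reads. Its annotated transcript is 544 bases long and the shortest coding sequence of the set 75 bases, so reads outside the coding sequence raise that value.

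Several of the lowest genes had most of their reads listed under pseudogenes. For each gene, pseudogenes whose transcripts matched at least 80% of the coding sequence at 95% identity or more were counted, with a median of 5 and a maximum of 56, for Rpl21. The reads of a gene and its matching pseudogenes that were listed under the pseudogenes came to 96.2% for Rpl29, 89.7% for Rps2, 85.4% for Rpl34, 70.2% for Rpl21, 69.4% for Rpl35a and 57.2% for Rpl30. These were the only 6 of the 73 genes above 50%, and 47 genes were under 10%. Across the 73 genes, Spearman's rho of the level per transcript length with the number of such pseudogenes was -0.04. Rplp2, Rps3 and Rpl8 had no such pseudogene. The labels do not say how reads were shared between a gene and its near-identical copies, so the levels of these 6 genes are uncertain. The share of TPM listed under all 266 Rpl and Rps pseudogene symbols was 1.70% to 3.48% over the libraries.

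**Figure D3:**
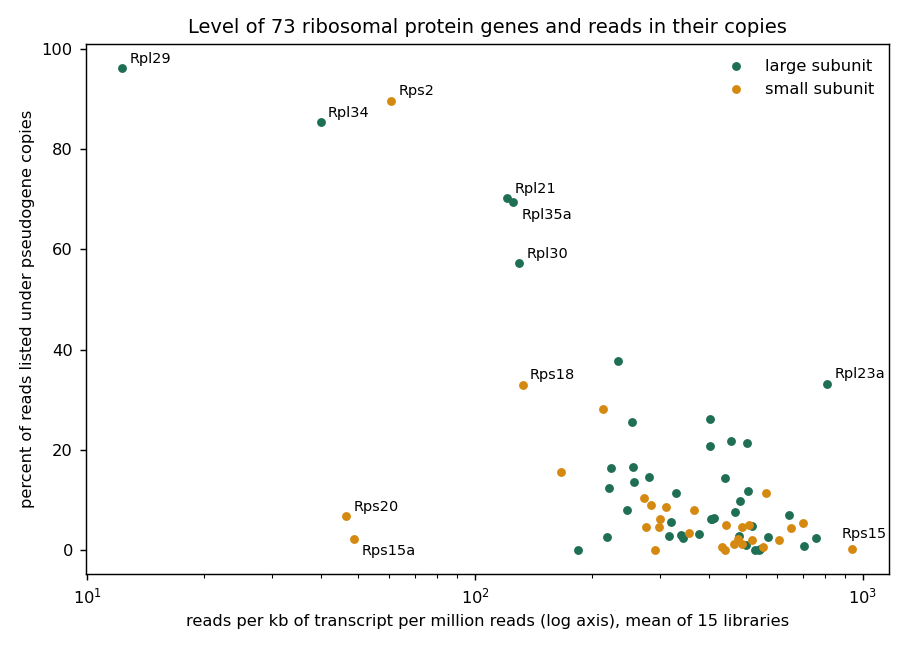
Mean level of 73 ribosomal protein genes in reads per kilobase of transcript per M reads (horizontal axis, log scale) against the percentage of reads listed under near-identical pseudogenes (vertical axis). Rpl29, Rpl34 and Rps2 combine low levels with 85.4% to 96.2% of reads under copies, whereas Rps20 is low with 6.73%.

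With anti-PD1 alone, set against controls, nearly all members lay lower and 1 of them passed the test. That member was Rps27rt, a retrocopy of the small-subunit gene Rps27, with a change of -0.55 in log2(TPM + 1) (SE 0.15, adjusted p = 0.0489). Of the 78 members, 0 were called higher and 1 lower at an adjusted p under 0.05, a share to be read against 3.52% of all 19390 genes tested that were called lower and 1.77% called higher. The estimate was below 0 for 76 members and for 63% of all genes. The members' median change was -0.54, with a range of -0.93 to 0.13, against -0.14 for all genes. It was -0.56 for large-subunit and -0.53 for small-subunit genes. At an unadjusted p under 0.05 there were 65 members, beside 34.2% of all genes.

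Scaling bears on these sizes. With median-of-ratios scaling between libraries, the median of all genes became 0.01 and that of the members -0.35. The calls over all genes were 344 higher and 682 lower as deposited, and 522 higher and 317 lower with that scaling. The 1 member call also rested on single libraries. Leaving out anti-PD1 library 3 gave 71 members called lower, with 3912 genes lower and 1070 higher in all, and leaving out Vorinostat library 3 gave 5, with 1295 genes lower and 645 higher. Without Control library 1, 2 or 3, the calls over all genes fell to 0 higher and 0 lower, 2 and 0, and 7 and 4, so counts of calls in this comparison rest on all 3 controls. Each of 11 other single libraries left out gave 0, and Combination library 2 and Vorinostat library 4 gave 1 each.

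Rps27rt was at 88.6, 85.0, 119.8 and 111 TPM in the anti-PD1 libraries, 123, 102, 145 and 119 TPM in the Combination libraries, 132, 133, 152 and 118 TPM in the Vorinostat libraries, and 142, 134 and 166 TPM in the Control libraries. Every anti-PD1 library was under every Control library. Its gene, chr9:114982366-114982739 (-) in mm10, is a single exon of 374 bases with the same 252-base coding length as Rps27, so reads of parent and copy may not be separable. Rps27 itself, given here because it is the parent, averaged 912 ± 168 TPM with anti-PD1 (SD, n = 4) and 1277 ± 195 TPM in controls (SD, n = 3), a change of -0.49 (SE 0.16, adjusted p = 0.0693).

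Groups that did not overlap, with anti-PD1 below controls, were seen for 3 of 78 members, and for 20.5% of all genes. Besides Rps27rt these were Rps27a and Rps3a2. Rps27a, made as a fusion to ubiquitin, was at 797, 694, 1184 and 738 TPM in the anti-PD1 libraries, 982, 1099, 1129 and 1167 TPM in the Combination libraries, 1105, 1169, 1245 and 872 TPM in the Vorinostat libraries, and 1246, 1197 and 1219 TPM in the Control libraries. Its change was -0.55 (SE 0.17, adjusted p = 0.0644). The Combination libraries of Rps27a also lay below all 3 controls. Rps3a2, annotated as a processed pseudogene of Rps3a1, averaged 93.0 ± 31.9 TPM with anti-PD1 (SD, n = 4) and 167 ± 33.7 TPM in controls (SD, n = 3), with a change of -0.89 (SE 0.28, adjusted p = 0.0676).

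The 3 stalk genes had unequal estimates against controls, and none passed. Rplp0 had a change of -0.93 (SE 0.39, adjusted p = 0.116), Rplp2 one of -0.66 (SE 0.23, adjusted p = 0.0806) and Rplp1 one of -0.30 (SE 0.15, adjusted p = 0.159). Rplp2 was at 222, 196, 368 and 284 TPM in the anti-PD1 libraries and 339, 455 and 451 TPM in the Control libraries, and Rplp1 at 1854, 2005, 2643 and 2343 TPM in the anti-PD1 libraries and 2319.8, 3022 and 2814 TPM in the Control libraries. Anti-PD1 library 3 lay within the range of the controls for both genes, and so did library 4 for Rplp1.

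Rpl5 and Rpl11 enter the ribosome with the 5S ribosomal RNA, and when free they bind Mdm2, the ubiquitin ligase of p53. Rpl5 was at 364, 260.1, 569 and 387 TPM in the anti-PD1 libraries, 498, 423, 619.5 and 608 TPM in the Combination libraries, 487, 615, 803 and 415 TPM in the Vorinostat libraries, and 502, 643 and 670.5 TPM in the Control libraries. Rpl11 was at 82.4, 71.0, 126 and 90.6 TPM in the anti-PD1 libraries, 110.4, 106, 126 and 134 TPM in the Combination libraries, 114, 123, 157 and 95.5 TPM in the Vorinostat libraries, and 116, 147 and 143 TPM in the Control libraries. For both, anti-PD1 libraries 1, 2 and 4 were the lowest, as for the set. Against controls, the anti-PD1 changes were -0.66 for Rpl5 (SE 0.26, adjusted p = 0.105) and -0.57 for Rpl11 (SE 0.19, adjusted p = 0.0750). Of 8 genes of this p53 checkpoint, 0 were called (all genes: 3.52% lower, 1.77% higher), and the median change was -0.22 against -0.14. The smallest p among them belonged to the p53 targets Phlda3, with a change of -0.93 (adjusted p = 0.0507), and Ccng1, with -0.44 (adjusted p = 0.0785).

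Other large-subunit genes fixed by name had similar estimates. The change was -0.52 for Rpl13a (adjusted p = 0.105), -0.74 for Rpl22, which T cell development in mice depends on (adjusted p = 0.107), and -0.40 for Rpl41 (adjusted p = 0.0959). Rpl22 averaged 185 ± 66.1 TPM with anti-PD1, 262 ± 66.3 TPM with the combination, 287 ± 92.0 TPM with vorinostat (SD, n = 4 each) and 298 ± 38.4 TPM in controls (SD, n = 3). Its paralog Rpl22l1, which in mice can stand in for it, had a change of -0.14 (SE 0.12, adjusted p = 0.426). The Rpl35a estimate of -0.46 (SE 0.14, adjusted p = 0.0621) had the second smallest p of the set, for a gene with most of its reads under copies.

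In the small subunit, Rps6, which S6 kinases phosphorylate, was at 1106, 894, 1667 and 1202 TPM in the anti-PD1 libraries, 1507, 1384, 1766 and 1748 TPM in the Combination libraries, 1422, 1701, 2026 and 1206 TPM in the Vorinostat libraries, and 1522, 1836 and 1831 TPM in the Control libraries. Anti-PD1 libraries 1, 2 and 4 and Vorinostat library 4 were the lowest for it. The change against controls was -0.54 for Rps6 (SE 0.21, adjusted p = 0.0994), -0.53 for Rps19 (SE 0.21, adjusted p = 0.102) and -0.80 for Rps28 (SE 0.25, adjusted p = 0.0637). Rps14, the gene behind the anaemia of the 5q- syndrome in humans, had a smaller one, -0.26 (SE 0.16, adjusted p = 0.246). The estimates above 0 were those of Rps19bp1, 0.13 (SE 0.20, adjusted p = 0.647), and Rpl13, 0.09 (SE 0.31, adjusted p = 0.849), and without anti-PD1 library 3 both were below 0.

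With vorinostat alone, members stayed near the controls. Of 78 members, 0 were called higher and 0 lower, as only 0.00516% of all genes were called lower and 0% higher. The median change was -0.10 and the range -0.20 to 0.18, against a median of -0.05 for all genes. The smallest p in each direction belonged to Rps27a, with -0.17 (SE 0.17), and Rpl13, with 0.18 (SE 0.31), and the smallest adjusted p of any member was 1. At an unadjusted p under 0.05 there were 0 members, beside 2.52% of all genes.

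With the combination, no member passed on this scale, and most lay near the controls. Calls numbered 0 higher and 0 lower, against 0.0155% of all genes called higher and 0.00516% lower. The members' median change was -0.13, against -0.03 for all genes, and the range was -0.31 to 1.06. Rpl13 held the upper end, with 1.06 (SE 0.31, unadjusted p = 0.00409, adjusted p = 0.454), as the 1 member at an unadjusted p under 0.05, beside 5.76% of all genes. Rps19bp1 came next with 0.42 (SE 0.20, adjusted p = 0.881), and Rps27rt was lowest by p with -0.28 (SE 0.15, adjusted p = 0.953). Groups did not overlap for 1 member above the controls, Rpl13, against 3.56% of all genes, and for 1 below them, Rps27a, against 4.08% of all genes.

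Against anti-PD1 alone, the combination had every member's estimate above 0, whereas 34.4% of all genes were below 0. Calls were 0 higher and 0 lower (0.0155% of all genes higher, 0% lower). The median change was 0.41 over members and 0.13 over all genes, and 33 members had an unadjusted p under 0.05, beside 23.5% of all genes. With median-of-ratios scaling the member median was 0.25 and that of all genes 0. Rpl13 had 0.97 (SE 0.29, adjusted p = 0.150), Rpl35a 0.37 (SE 0.13, adjusted p = 0.168) and Rps2, at the entry of the messenger RNA channel, 0.46 (SE 0.16, adjusted p = 0.172). Rpl35a was the 1 member without overlap, against 4.95% of all genes, at 142, 145, 145 and 149 TPM in the Combination libraries and 105, 90.8, 141 and 116 TPM in the anti-PD1 libraries. Leaving out anti-PD1 library 3 gave 3 members called higher, with 532 genes higher and 139 lower in all.

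The combination and vorinostat alone had close values, with 0 members called in either direction (0.0103% of all genes higher, 0% lower), a median change of -0.02 and a range of -0.28 to 0.89 whose upper end was again Rpl13 (SE 0.29, adjusted p = 0.726). Anti-PD1 set against vorinostat, each alone, gave 0 called (0% of all genes higher, 0.00516% lower). The members' median was -0.41, against -0.09 for all genes, and 77 of 78 estimates were below 0 against 61.1% of all genes. With median-of-ratios scaling the member median was -0.29 and that of all genes 0.01. Rps3a2 had the smallest p, with -0.86 (SE 0.26, adjusted p = 0.110). Without anti-PD1 library 3 that comparison called 11 members lower, with 765 genes lower and 297 higher in all.

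The interaction asks whether the combination differs from anti-PD1 by more than vorinostat differs from controls. All 78 estimates were above 0, whereas 33.7% of all genes were below 0, with a median of 0.54 against 0.18 for all genes, and 0 members were called higher or lower (0.0103% of all genes higher, 0% lower). The smallest adjusted p was 0.283, for Rpl35a with 0.46 (SE 0.19), and 5 members had an unadjusted p under 0.05, a smaller share than the 16.4% of all genes. With median-of-ratios scaling the member median was 0.31 and that of all genes -0.01. These comparisons share groups, so their estimates are not independent of one another.

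**Figure D4:**
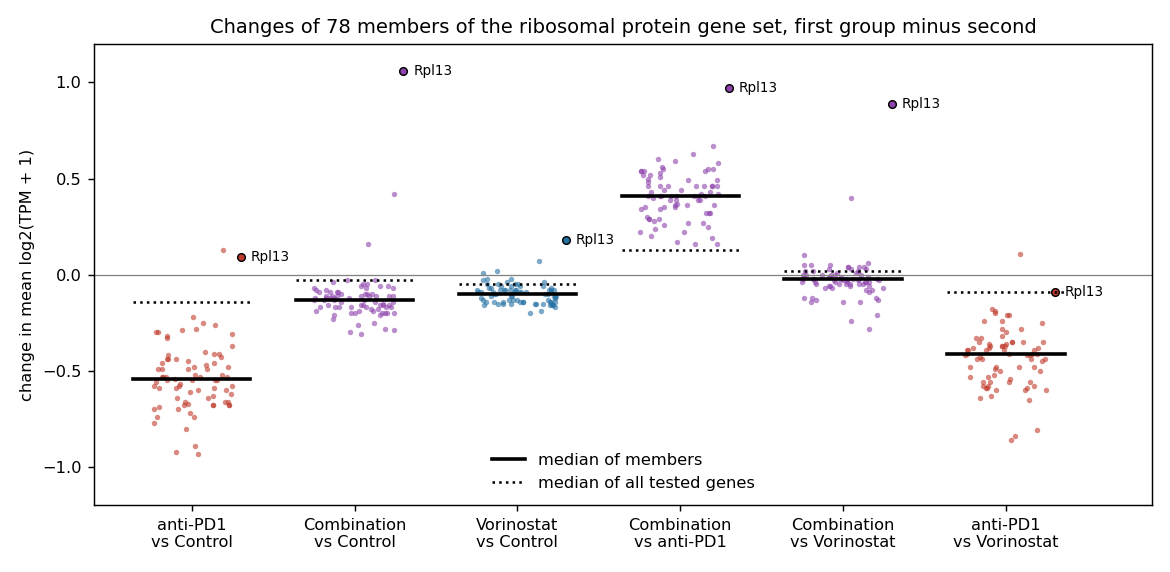
Change in mean log2(TPM + 1), first group minus second (vertical axis), of 78 members in 6 comparisons (horizontal axis). Each point is a member, solid lines mark member medians, dotted lines the medians of all genes tested, and Rpl13 is outlined. Member medians are -0.54 and -0.41 for anti-PD1 against Control and Vorinostat, 0.41 for Combination against anti-PD1, and within 0.13 of 0 for the rest.

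Rpl13, which encodes a protein of the large subunit, lies at chr8:123102350-123105244 (+) in mm10. It was at 652, 764, 1526 and 672 TPM in the anti-PD1 libraries, 1338, 1562, 2024 and 1808 TPM in the Combination libraries, 916, 885, 1378 and 582 TPM in the Vorinostat libraries, and 669, 862 and 869.7 TPM in the Control libraries. All 4 Combination libraries were above all 3 Control libraries, and anti-PD1 library 3 and Vorinostat library 3 reached into the Combination range. Group means were 904 ± 418 TPM with anti-PD1, 1683 ± 297 TPM with the combination, 940.4 ± 329 TPM with vorinostat (SD, n = 4 each) and 800.2 ± 114 TPM in controls (SD, n = 3).

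Relative to the member median of the same library, in log2 units, Rpl13 was at 0.55, 0.88, 1.11 and 0.41 in the anti-PD1 libraries, 1.08, 1.41, 1.41 and 1.26 in the Combination libraries, 0.50, 0.27, 0.59 and 0.12 in the Vorinostat libraries, and 0.12, 0.10 and 0.14 in the Control libraries. In that relative fit, Rpl13 rose in the combination against controls by 1.17 (SE 0.16, unadjusted p = 4.42e-06, adjusted p = 0.0145), higher in 4 of 4 libraries. It was the 1 member called higher, with 0 called lower, where 0.0516% of all genes were called higher and 0.00516% lower. The call was lost on leaving out Combination library 2 (adjusted p = 0.0610) or 3 (0.0743), or Control library 1 (0.138), 2 (0.115) or 3 (0.0876), while the change stayed between 1.13 and 1.24 over all 15 libraries left out in turn.

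Against controls, the relative change of Rpl13 was 0.62 with anti-PD1 (SE 0.16, adjusted p = 0.0659) and 0.25 with vorinostat (SE 0.16, adjusted p = 1). In that fit 0 members were called with anti-PD1 (0.753% of all genes higher, 0.0361% lower) and 0 with vorinostat (0% higher, 0.00516% lower). Over all genes the median relative change was 0.39 with anti-PD1, 0.02 with vorinostat and 0.08 with the combination, as the subtracted median itself moved. Relative changes with anti-PD1 are to be read against that 0.39. Rps19bp1 had relative changes of 0.66 with anti-PD1 (SE 0.17, adjusted p = 0.0635) and 0.52 with the combination (SE 0.17, adjusted p = 0.685). It was at 22.6, 25.3, 44.7 and 30.4 TPM in the anti-PD1 libraries, 28.0, 39.4, 38.7 and 41.9 TPM in the Combination libraries, 31.2, 26.8, 28.7 and 23.6 TPM in the Vorinostat libraries, and 25.5, 28.5 and 27.4 TPM in the Control libraries. Its controls lay close together, and the treated libraries spread to both sides of them. Downward, the smallest p with anti-PD1 belonged to Rps28 at -0.27, Rpl32 at -0.25 and Rps3a2 at -0.36, with adjusted p-values of 0.105, 0.110 and 0.118.

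**Figure D5:**
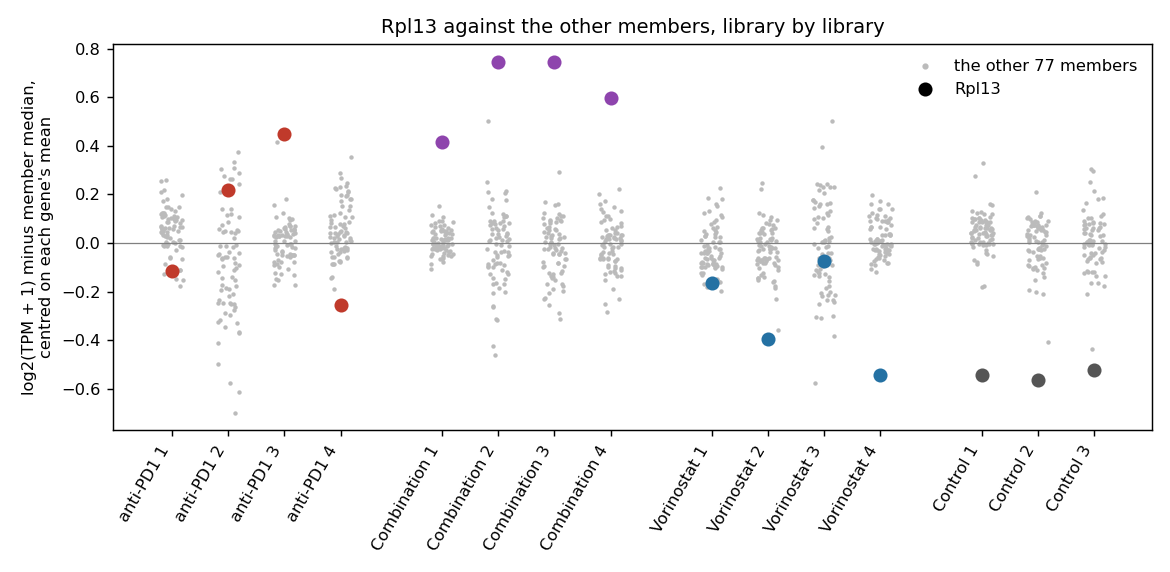
Level relative to each library's member median, in log2(TPM + 1) and centred on each gene's mean over the 15 libraries (vertical axis), for Rpl13 (large points) and the other 77 tested members (small points) by library (horizontal axis). Rpl13 is above the other members in Combination libraries 1 to 4 and at the bottom in the Control libraries.

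Neighbouring genes and copies were read beside Rpl13. The 8 pseudogenes near-identical to it took up 9.82% of the reads of the group. Rpl13-ps6 had 55.9, 35.7, 89.1 and 60.4 TPM in the anti-PD1 libraries, 93.3, 78.3, 117 and 111 TPM in the Combination libraries, 86.9, 104, 138 and 67.9 TPM in the Vorinostat libraries, and 74.6, 93.3 and 113 TPM in the Control libraries. Spg7, which flanks Rpl13 on chromosome 8, had 12.9, 9.78, 13.3 and 11.1 TPM in the anti-PD1 libraries, 11.2, 12.5, 11.8 and 13 TPM in the Combination libraries, 10.3, 12.5, 14.0 and 12.1 TPM in the Vorinostat libraries, and 10.6, 12.4 and 11.9 TPM in the Control libraries. The other pseudogene read, Rpl13-ps3, averaged 37.1 ± 10.7, 50.8 ± 7.63 and 62.3 ± 14.8 TPM with anti-PD1, the combination and vorinostat (SD, n = 4 each) and 59.2 ± 12.9 TPM in controls (SD, n = 3). Cpne7, on the other side of Rpl13, averaged 7.56 ± 3.09, 4.88 ± 2.27 and 6.21 ± 3.03 TPM in those treated groups (SD, n = 4 each) and 3.52 ± 1.14 TPM in controls (SD, n = 3), and the nearby Chmp1a 79.8 ± 6.32, 82.9 ± 2.95 and 84.7 ± 3.65 TPM (SD, n = 4 each) and 85.3 ± 5.05 TPM (SD, n = 3). In these 5 genes the Combination and Control libraries overlapped, unlike those of Rpl13. These genes were chosen for their place or sequence after the values of Rpl13 were seen.

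Genes that act with the ribosome had estimates mostly below 0 with anti-PD1 against controls, and few passed. Over all genes tested, 63% were below 0, 3.52% were called lower and 1.77% higher, and the median change was -0.14. Fau, a ribosomal protein fused to a ubiquitin-like protein, did not pass, with -0.24 (SE 0.12, adjusted p = 0.183). Neither did Rack1, a scaffold on the small subunit, with -0.75 (SE 0.33, adjusted p = 0.133). Of the like-named paralogs, 5 of 8 were tested and 0 called. Rps27l, a p53-regulated paralog of Rps27, had the largest estimate of them, -1.30 (SE 0.39, adjusted p = 0.0596), and Rpl7l1 had -0.61 (SE 0.25, adjusted p = 0.110). Of 18 other TOP genes, 18 were below 0 and 0 were called, with a median of -0.51. Of 9 elongation factors, 0 were called and the median was -0.41. Of 27 initiation factors, 0 were called and the median was -0.40, with the smallest p for Eif3i at -0.58 (adjusted p = 0.0733) and Eif2s2 at -0.82 (adjusted p = 0.0835).

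Ribosome assembly gave 1 call. Of 42 tested biogenesis genes, 1 was called lower and 0 higher (all genes: 3.52% lower, 1.77% higher), with a median of -0.41 against -0.14. The gene was Nop58, a core protein of the box C/D particles that methylate ribosomal RNA, which fell by 0.89 (SE 0.23, adjusted p = 0.0461), a call lost on leaving out any of 11 single libraries (adjusted p up to 0.162). The nucleolar chaperone Npm1 had -0.96 (SE 0.28, adjusted p = 0.0558). Of 8 noncoding hosts of small nucleolar RNAs, which are themselves TOP transcripts, 0 were called and the median was -0.59, with -0.72 for Snhg8 and -1.10 for Snhg6 (adjusted p = 0.0585 and 0.0615). Of 13 regulators of TOP translation, 0 were called and the median was -0.05, with 0.42 for Rheb, the GTPase that turns on mTORC1, and -0.40 for the S6 kinase gene Rps6kb1 (adjusted p = 0.0974 and 0.105).

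Mitochondrial ribosomal protein genes make a separate ribosome. Of 77 tested, 6 were called lower and 0 higher (all genes: 3.52% lower, 1.77% higher), with a median of -0.25 against -0.14. Among them Mrpl18 fell by 0.42 (SE 0.09, adjusted p = 0.0290) and Mrpl42 by 0.39 (SE 0.08, adjusted p = 0.0324). Both calls were lost without any 1 of anti-PD1 libraries 1, 2 and 4 or of the controls (adjusted p up to 0.125), and with median-of-ratios scaling (adjusted p = 0.0505 and 0.0527). Of the 266 pseudogene symbols, 195 passed the filter on low values. Of these, 29 were called lower and 1 higher, against the same shares of all genes, with a median of -0.68. Rps25-ps1 fell by 0.70 (SE 0.11, adjusted p = 0.0147) and Rpl26-ps6 rose by 1.62 (SE 0.25, adjusted p = 0.0147), calls lost only without a Control library (adjusted p up to 0.0681 and 0.0772) among the single libraries left out. With the combination against anti-PD1 alone, none of the lists named here had a member called (all genes: 0.0155% higher, 0% lower).

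Markers of other cells differed between the same libraries. The neuron list (14 of 16 genes in the table, none at 0 in any library) summed to 1734, 2185, 1096 and 1547 TPM in the anti-PD1 libraries, 816, 1244, 722 and 856 TPM in the Combination libraries, 1180, 757, 389 and 1530.4 TPM in the Vorinostat libraries, and 976, 741 and 608 TPM in the Control libraries. With anti-PD1 against controls, 3 of its 14 genes were called higher and 0 lower, with a median of 0.97. Over all genes, 1.77% were called higher and 3.52% lower, with a median of -0.14. Gad1 rose by 1.46 (SE 0.29, adjusted p = 0.0267). That call was lost without any 1 of anti-PD1 libraries 1, 2 and 4 or of the controls (adjusted p up to 0.113). The 26 cell-cycle genes, none at 0, summed to 307 to 807 TPM with anti-PD1, 406 to 1476 TPM with the combination, 868 to 1945 TPM with vorinostat and 1314 to 1616 TPM in controls. Of these 26 genes, 2 were called lower with anti-PD1, against the same shares of all genes, and the median was -1.43. They were Ccne2, with a change of -0.63, and Ccne1, with one of -0.41 (adjusted p = 0.0336 and 0.0486). The call of Ccne2 was lost on leaving out any of 6 single libraries (adjusted p up to 0.118) and that of Ccne1 any of 12 (up to 0.141), and Ccne1 did not pass with median-of-ratios scaling (0.190). The 8 glioma and oligodendrocyte progenitor markers, none at 0, gave 0 calls and a median of -0.69, and summed to 1510 to 5806 TPM with anti-PD1, 1507 to 6850.1 TPM with the combination, 3778 to 11506 TPM with vorinostat and 4666 to 6717 TPM in controls. The labels name the cells as low-grade glioma cells, and the neuron, oligodendrocyte, astrocyte and microglia markers in the table were above 0 in every library. The part of these cells in the members' levels was not tested.

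Other marker lists had fewer calls with anti-PD1 against controls (all genes: 1.77% higher, 3.52% lower). Red-cell genes (4 of 5 in the table) had 0 calls and a median of 1.39, and summed to 1662 to 33105 TPM with anti-PD1, 2104 to 3065 TPM with the combination, 3088 to 15565 TPM with vorinostat and 555 to 6427 TPM in controls. Of 9 T cell genes in the table, 4 were tested and 1 called higher, Cd4, with a change of 1.64 (adjusted p = 0.0459). That call was lost on leaving out any of 9 single libraries (adjusted p up to 0.145). All 9 genes together summed to 6.4 to 15.3 TPM with anti-PD1 and 2.7 to 3.7 TPM in controls, near the filter of 1 TPM. The filter asks for 3 libraries, so the group where a gene is high can be enough to pass it. B and plasma cell genes had 0 of 5 called and a median of 1.06, oligodendrocyte genes 0 of 6 and 0.50, astrocyte genes 0 of 7 and 0.18, and microglia genes 0 of 10 and -0.09.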

How the data were processed

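RNA was isolated with Trizol and libraries were made with the NEBNext Ultra RNA kit, per the labels' protocols; nothing there says that strand was kept. The submitters' processing notes name FastQC, HISAT2, StringTie, DESeq2 and the mm10 build, without versions or roles. The authors deposited TPM, 1 column a sample, and what the adjustment in the table's name means was not given. Columns summed to 996108 to 997722.

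For 37897 of 38172 symbols (99.28%), TPM times length over a library constant was a whole number of reads within 0.001 reads. The length was the gene span of GENCODE vM21 for 98.7% of annotated symbols. Levels per length used the principal transcript of that annotation. Near-identical pseudogenes were found with blastn 2.17.0. Small nucleolar RNAs inside member genes were not used. Of all 110 small nucleolar RNA symbols listed, inside member genes or not, 41 held exactly 1 read in at least 13 libraries.

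The 19390 genes (78 members among them) that reached 1 TPM in 3 or more libraries were fitted on log2(TPM + 1) with limma 3.58.1 in R 4.3.3 (linear model over all 15 libraries, empirical Bayes with a trend, Benjamini-Hochberg adjustment over all genes, threshold 0.05). Fold changes on this scale understate changes of low genes. A further fit subtracted each library's member median from every gene. The script was tested on simulated data first. Text and figures used Python 3.11.15, pandas 2.3.3, numpy 2.4.6 and matplotlib 3.10.9.

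Members, gene lists and tests were chosen with earlier results of these data known. Named members were the 3 of smallest p in each direction of a comparison, the 3 highest and lowest in level and in SD, and 13 fixed by name; from other lists, the 2 of smallest p. The labels do not say what replicate numbers mean. The deviations of same-numbered libraries correlated at 0.20, 0.64, 0.43 and 0.29 between Combination and anti-PD1. In every other pair of groups, at least 1 number had a correlation under 0.1. These correlations do not show that the numbers pair libraries, and the main fits held no replicate block. Alternatives were another pseudocount, 2 other filters, median-of-ratios scaling, voom on recovered reads, only the groups compared, a replicate block and each library left out. Read numbers limit counting error only.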

Additional observations from a re-analysis of the deposited data

Results flagged for a closer look

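Among 141 groups of 4 values looked at for named members, 4 held a library whose gap to its nearest neighbour, as a part of the group's range, was past Dixon's 95% value, and chance gives about 5% of such groups. Rpl13 in the anti-PD1 group was highest in library 3, at 1526 TPM, with the other libraries at 652 to 764 TPM. Rpl32 relative to the member median was lowest in anti-PD1 library 2, at -0.28, with the other libraries at -0.07 to -0.03, and highest in Vorinostat library 3, at 0.18, with the others at 0.02 to 0.03. Rps3a2 relative to the member median was lowest in Vorinostat library 4, at -2.26, with the others at -2.05 to -2.03.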

How the results depend on the processing

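Members called with anti-PD1 against controls numbered 1, and 0 with a pseudocount of 0.1, with no filter, with median-of-ratios scaling, with voom on recovered reads or with only the groups compared. Over all genes, voom called 392 higher and 216 lower. With the replicate block, 16 members were called lower there (all genes: 803 higher and 1818 lower), 2 lower with anti-PD1 against vorinostat, and 2 departed from the member median with anti-PD1 against controls, Rpl13 by 0.69 (adjusted p = 0.0246) and Rps19bp1 by 0.63 (adjusted p = 0.0407). In the relative fit without the block, the median change of all genes with anti-PD1 was 0.39. The block changed no other count of members, including that of Combination against anti-PD1. Whether the numbers pair libraries is not known.

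Leaving out 1 library gave 0 to 71 members for anti-PD1 against controls, 0 to 11 for anti-PD1 against vorinostat and 0 to 3 for Combination against anti-PD1. Departures from the member median ranged over 0 to 3 for anti-PD1 and 0 to 1 for the combination against controls. The other counts of members were 0 under every alternative, and leaving Rps19bp1 out of the members changed none.

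Reversed signs were seen for estimates near 0 in these members. Rpl13 with anti-PD1 against vorinostat was 0.03 with median-of-ratios scaling and 0.01 with voom, and ranged over -0.37 to 0.12 with 1 library left out (above 0 without anti-PD1 1, anti-PD1 4 or Vorinostat 3). With 1 library left out, anti-PD1 against controls gave -0.19 to 0.21 for Rpl13 (below 0 without anti-PD1 3 or Control 1) and -0.06 to 0.26 for Rps19bp1 (without anti-PD1 3), and against vorinostat -0.08 to 0.24 for Rps19bp1 (without anti-PD1 3). Vorinostat against controls gave -0.03 to 0.39 for Rpl13, -0.04 to 0.09 for Rps19bp1 and -0.07 to 0.15 for Rps2. The lowest values came without Vorinostat 3 for Rpl13, Vorinostat 1 for Rps19bp1 and Control 1 for Rps2. Rps2 was also below 0 without Vorinostat 3, and Rps19bp1 also without Control 1. The causes were not tested. Of 2486 values of named genes under alternatives, 2266 kept direction and side of the threshold, 92 passed it newly, 114 no longer passed and 14 reversed. By TPM as deposited, Rplp1 ranked 1 and Rpl23a 10 in level. Levels per coding length were added after seeing the data.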
